A study of Mus musculus with 6 samples.

Results

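The genes described here are the cytokine, chemokine and interferon ligands of the mouse, taken from the GENCODE annotation of the GRCm38 (mm10) genome by their symbols: protein-coding genes named Ccl or Cxcl with a number, the interferon genes Ifna, Ifnab, Ifnb1, Ifne, Ifng, Ifnk and Ifnz, and interleukins named Il with a number and at most 1 of the letters a, b or f. This rule gave 85 of 21853 protein-coding genes, made up of 23 Ccl genes, 12 Cxcl genes, 19 interferon genes and 31 interleukin genes. The symbol pattern uses no measured value, and it was written with earlier results of these data known. By its last letter it leaves out Il17c and Il17d, of which Il17d had a marked promoter as defined below.

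The study measured H3K27ac, an acetylation of histone H3 found at active promoters and enhancers, by chromatin immunoprecipitation and sequencing in mouse embryonic stem cells. The cells were 1 line, E14Tg2A Rosa26-Cre Oct4-IRES-Puro, grown without feeder cells in N2B27 medium with the cytokine LIF and the kinase inhibitors PD0325901 and CT-99021, and all groups shared this line, this medium and a spike-in of chromatin from HEK293T, a human embryonic kidney cell line. DMSO, the solvent, was given to control cells, whereas the treated groups received for 120 min either 100 nM of NVP-2, a CDK9 inhibitor, or 800 nM of the DNA-binding drug actinomycin D (ActD), with 2 replicates in each of the 3 groups. The values below come from 22973 peaks of the control cells, pooled by the authors over both control replicates, and the treated libraries were not analysed here.

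A peak is an interval with a start and an end and carries no height, score or count, so the depth behind a peak cannot be read from the list, no replicate error can be given, and no test was made. Intervals are 95% Wilson intervals for shares and order-statistic intervals for medians, and they cover counting error only. A promoter is the window of ± 1 kb around the transcription start site (TSS) of a gene, taken from the protein-coding isoform of greatest genomic length, and it is called marked if a peak overlaps it by at least 1 bp. An unmarked promoter may have lacked the signal or failed a filter of the authors, on height, on distance to ATAC-seq summits or on mapping of reads, and the list does not tell these apart. Of 10 pluripotency markers, 8 had marked promoters, among them Pou5f1, Nanog, Sox2 and Zfp42. Klf4 and Esrrb were unmarked, 14.7 kb and 33.7 kb from the nearest peak. Marked promoters were also found for 2 of 10 fibroblast markers (Pdgfrb and Twist1), 1 of 10 leukocyte markers (Cd68) and 2 of 10 endoderm markers (Gata4 and Gata6). The leukocyte genes Ptprc, Spi1, Csf1r and Cd3e were unmarked, at 436 kb, 11.0 kb, 37.5 kb and 30.8 kb from a peak. Over the 9 unmarked leukocyte markers the median was 17.0 kb, and Cd4 was the nearest, at 2.99 kb.

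Chemokines are small secreted proteins that steer migrating cells through G protein-coupled receptors, and their Ccl and Cxcl names refer to the spacing of conserved cysteines. Interferons are secreted after infection and signal through JAK kinases and STAT factors, and interleukins carry signals mainly between leukocytes. Most of these genes are kept silent in resting cells and are switched on by factors such as NF-κB, AP-1 and the interferon regulatory factors. Many lie in clusters that arose by gene duplication, so neighbouring members share sequence and a common neighbourhood, and they do not count as independent observations.

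Promoter sequences from RefSeq (GRCm38.p6, 250 bases before the TSS and 50 from it on, read in the direction of transcription) are shown for 3 of the marked and 3 of the unmarked members. Capitals mark every CpG dinucleotide, since the CpG content of the promoters is compared further on. The first 3 were marked and held 52, 11 and 22 CpGs.
Ccl25 (chr8:4324960-4325259, plus strand): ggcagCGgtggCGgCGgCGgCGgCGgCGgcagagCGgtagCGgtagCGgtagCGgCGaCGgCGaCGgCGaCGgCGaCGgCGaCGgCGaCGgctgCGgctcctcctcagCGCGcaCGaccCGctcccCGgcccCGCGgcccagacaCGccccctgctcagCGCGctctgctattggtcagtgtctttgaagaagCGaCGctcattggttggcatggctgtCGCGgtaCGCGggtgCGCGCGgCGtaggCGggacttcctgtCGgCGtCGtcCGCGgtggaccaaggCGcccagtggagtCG
Ccl27a (chr4:41774127-41774426, minus strand): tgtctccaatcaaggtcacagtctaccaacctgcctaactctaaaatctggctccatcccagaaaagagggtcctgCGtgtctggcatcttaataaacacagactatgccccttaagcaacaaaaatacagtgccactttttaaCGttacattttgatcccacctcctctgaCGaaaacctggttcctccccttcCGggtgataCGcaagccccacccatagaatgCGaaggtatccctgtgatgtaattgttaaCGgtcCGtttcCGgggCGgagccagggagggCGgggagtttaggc
Cxcl14 (chr13:56296502-56296801, minus strand): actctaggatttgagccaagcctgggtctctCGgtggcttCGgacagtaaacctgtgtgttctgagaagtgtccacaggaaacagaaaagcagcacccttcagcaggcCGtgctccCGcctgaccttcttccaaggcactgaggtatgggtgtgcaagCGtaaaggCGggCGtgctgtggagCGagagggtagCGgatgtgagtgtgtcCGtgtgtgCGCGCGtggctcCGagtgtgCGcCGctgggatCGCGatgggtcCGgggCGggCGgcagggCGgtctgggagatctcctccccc
The next 3 were unmarked and belong to ligands that are classical targets of immune signalling. They held 10, 3 and 3 CpGs.
Cxcl10 (chr5:92348840-92349139, minus strand): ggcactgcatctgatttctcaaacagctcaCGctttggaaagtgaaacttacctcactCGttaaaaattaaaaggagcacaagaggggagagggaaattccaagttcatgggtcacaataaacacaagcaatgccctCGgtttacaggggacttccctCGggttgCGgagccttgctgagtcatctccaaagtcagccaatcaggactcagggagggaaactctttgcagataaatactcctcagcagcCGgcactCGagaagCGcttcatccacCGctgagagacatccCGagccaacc
Ifnb1 (chr4:88522745-88523044, minus strand): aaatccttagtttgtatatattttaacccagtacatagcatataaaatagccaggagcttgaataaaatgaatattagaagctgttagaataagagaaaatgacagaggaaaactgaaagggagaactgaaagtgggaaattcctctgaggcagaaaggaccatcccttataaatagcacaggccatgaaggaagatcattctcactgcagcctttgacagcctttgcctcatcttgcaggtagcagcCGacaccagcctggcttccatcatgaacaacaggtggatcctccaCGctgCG
Il6 (chr5:30012864-30013163, plus strand): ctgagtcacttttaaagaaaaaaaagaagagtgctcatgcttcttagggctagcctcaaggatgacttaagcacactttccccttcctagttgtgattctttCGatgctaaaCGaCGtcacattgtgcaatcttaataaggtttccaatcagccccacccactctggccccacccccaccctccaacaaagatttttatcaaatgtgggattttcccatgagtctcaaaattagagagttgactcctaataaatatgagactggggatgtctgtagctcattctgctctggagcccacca
Of the 85 members, 65 had an entry in the RefSeq promoter table, and 57 of these entries lay within 100 bp of the TSS used here.

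Of the 85 ligand promoters, 4 were marked in control cells, those of Ccl25, Ccl27a, Cxcl14 and Il34. This is 4.71% (95% interval 1.85% to 11.5%), against 48.8% of all 21853 protein-coding promoters and 49.0% once the members were taken out. Among the subfamilies, 2 of 23 Ccl promoters (8.70%, 2.42% to 26.8%), 1 of 12 Cxcl promoters (8.33%, 1.49% to 35.4%) and 1 of 31 interleukin promoters (3.23%, 0.572% to 16.2%) were marked. None of the 19 interferon promoters was marked, and a count of 0 allows a share of up to 15.8%. That limit takes the genes as independent, but they lie in only 3 loci, and 17 of them in 1 locus. The intervals of the subfamilies overlap, and an order among the subfamilies was not tested. Counted by locus, with members within 500 kb of each other joined, 4 of 39 loci (10.3%, 4.06% to 23.6%) held a marked promoter. With Il17c and Il17d included, 5 of 87 promoters (5.75%) were marked.

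**Figure D1:**
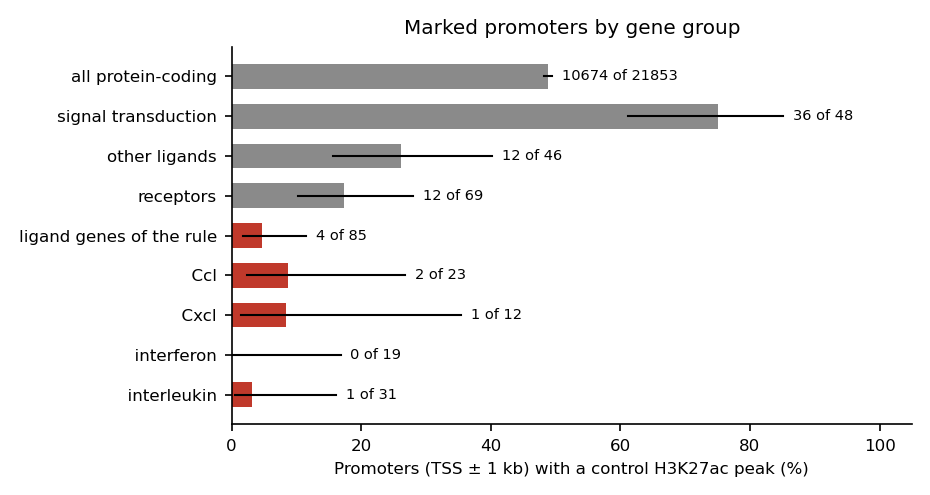
Share of promoters overlapped by a control H3K27ac peak (horizontal axis, percent) in each gene group (vertical axis), where bars are shares, black lines are 95% Wilson intervals and labels give marked of all genes. The ligand genes and their subfamilies (red) stood at 0% to 8.70%, receptors and other ligands at 17.4% and 26.1%, all protein-coding genes at 48.8% and signal transduction genes at 75.0%.

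The 4 marked promoters differed in how the peak lay over the TSS. Cxcl14, a chemokine known mainly from epithelia, lies on the minus strand of chromosome 13 (56288643 to 56296551). Its peak was narrow (chr13:56295613-56296454, 842 bp, wider than only 10.8% of all peaks) and began 97 bp after the TSS and ended 938 bp after it. The TSS of the other annotated isoform, at 56296305, fell within the peak, while the TSS used here did not. The next TSS of another gene, Neurog1, was 44388 bp away, and no other promoter overlapped the peak. Cxcl14 lost its mark when the TSS itself had to lie in a peak and when peaks under 1 kb were left out.

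Ccl27a, which encodes a skin-homing chemokine, lies on the minus strand of chromosome 4 (41769467 to 41774142). Its peak (chr4:41773624-41774897, 1274 bp) reached from 755 bp before the TSS to 518 bp after it. Of its 8 protein-coding isoforms, 5 had a marked promoter, and the unmarked isoform farthest from the peak started at 41770212, 3.41 kb from it. The region is duplicated: of all 31-base words in the 2 kb around the Ccl27a TSS, 29.8% occurred once in the 21 chromosomes searched. Around the TSS of its copy Ccl27b, which was unmarked, 0% did.

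Ccl25, a chemokine of thymus and small intestine, lies on the plus strand of chromosome 8 (4325233 to 4359654). Its peak (chr8:4322078-4326104, 4027 bp) covered 3155 bp before the TSS and 871 bp after it. The same peak covered the TSS of Elavl1, the gene of a widely expressed RNA-binding protein, which lies at 4325413 on the opposite strand, 180 bp away. H3K27ac over the 2 start sites cannot be told apart. Only 2 of the 4 protein-coding isoforms of Ccl25 start there. Another isoform starts at 4349588, 1.05 kb from a peak, and with the isoform of the longest spliced length in its place Ccl25 counted as unmarked. The gene body held 2 further peaks.

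Il34, which encodes a ligand of the receptor Csf1r, lies on the minus strand of chromosome 8 (110741840 to 110805903). It had the widest peak of the 4 (chr8:110805572-110813166, 7595 bp, wider than 88.3% of all peaks). Most of this peak lay upstream, with 7263 bp before the TSS and 331 bp after it, and its far end overlapped the body of the splicing factor gene Sf3b3. Both protein-coding isoforms were marked, and the gene held 1 further peak. The nearest TSS of another gene, Cog4, was 40697 bp away.

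**Figure D2:**
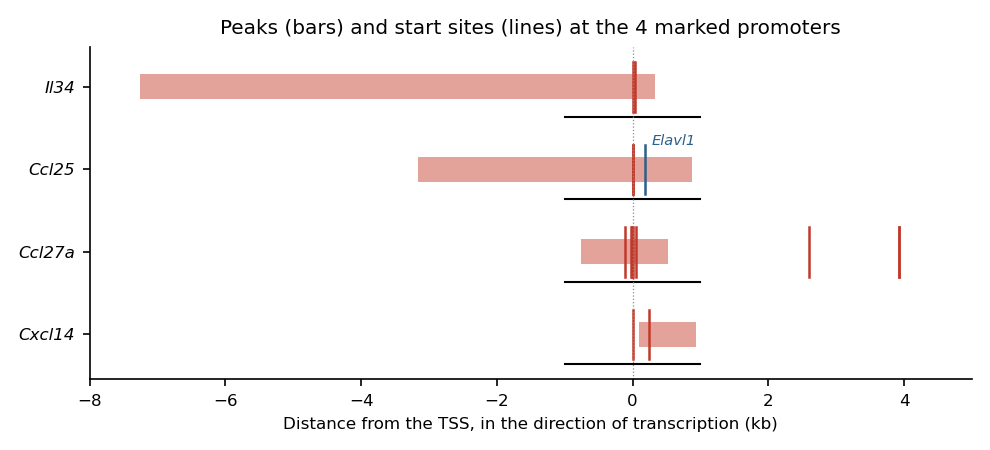
Control H3K27ac peaks (pale red bars) at the 4 marked ligand promoters, by distance from the TSS in the direction of transcription (kb), with protein-coding start sites of the member (red lines), of another gene (blue line) and the ± 1 kb promoter window (black line). The peak of Cxcl14 lay wholly after the TSS, that of Ccl25 also covered the TSS of Elavl1, and that of Il34 extended 7263 bp upstream.

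Il25, which encodes an epithelial interleukin of type 2 immunity, fell just outside the window. The nearest peak (chr14:54925298-54930715, 5418 bp) ended 1.98 kb before its TSS and lay over the promoter of Efs. Of the alternatives run, only a window of ± 2 kb made Il25 count as marked. Among the 22 members named by the rule for this text, the call changed under an alternative for Ccl25, Cxcl14 and Il25.

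The distance from the TSS to the nearest peak describes how far the other promoters stood from a peak of the list. Over all 85 members the median was 79.3 kb (57.6 to 102 kb), the quartiles were 30.3 and 163 kb, and the farthest member was 521 kb away. For all protein-coding genes the median was 2.16 kb. Among unmarked genes only, the median was 87.7 kb (69.9 to 104 kb) for the 81 ligands and 60.3 kb (58.0 to 62.4 kb) for 11179 protein-coding genes. The value depends on clustering and on narrow peaks. With members within 500 kb counted once, the median over unmarked members was 48.7 kb, which is below the 60.3 kb of unmarked protein-coding genes, all of them counted singly. With peaks of at least 1 kb only it was 157 kb (72.7 kb for the unmarked protein-coding genes).

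Just 12 members had a peak within 10 kb, 4 of them at the promoter and 8 (9.41%) between 1 and 10 kb, a band that held 7.70% of all protein-coding genes. A further 20 (23.5%) stood at 10 to 50 kb, 20 (23.5%) at 50 to 100 kb and 33 (38.8%) beyond 100 kb, against 15.8%, 8.06% and 19.6% of protein-coding genes. The medians were 96.6 kb (64.3 to 213 kb) for Ccl, 165 kb (9.96 to 411 kb) for Cxcl, 95.9 kb (57.6 to 129 kb) for interferon and 47.7 kb (22.3 to 79.3 kb) for interleukin genes, and these intervals overlap.

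**Figure D3:**
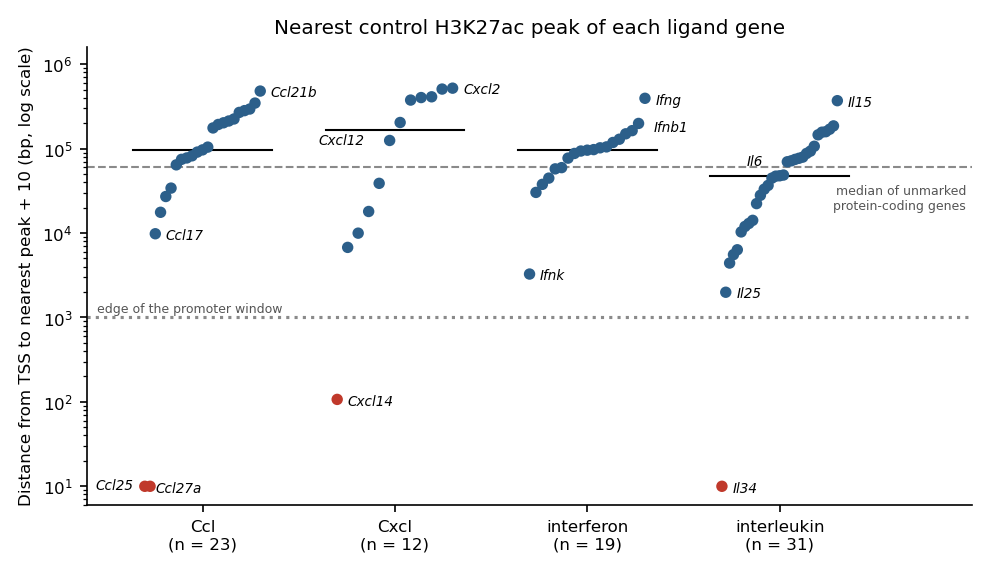
Distance from the TSS to the nearest control H3K27ac peak, plus 10 bp, on a log scale for each ligand gene, grouped by subfamily; red points are marked promoters, black lines are subfamily medians, the dotted line is the edge of the promoter window and the dashed line is the median of unmarked protein-coding genes. The marked promoters of Ccl25, Ccl27a, Cxcl14 and Il34 lie under the dotted line, and most other points lie above 10 kb.

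The type I interferon genes, which encode antiviral signals of infected cells, lie in 1 locus on chromosome 4, all but Ifnk. From Ifnb1 at 88522774 to Ifne at 88880201, 17 members share 357 kb with 16 other protein-coding genes. This locus held 1 peak (chr4:88721659-88722545, 887 bp), at the promoters of Klhl9 and Gm26566. Klhl9 encodes an adaptor of a ubiquitin ligase and is no ligand. Ifnb1, the interferon beta gene, was 199 kb from this peak, and the nearest member, Ifnab, was 30.3 kb from it. Ifnb1 and the 8 members that follow it up to the peak lay in a stretch of 626 kb without a peak, and the 8 members on the other side lay in a stretch of 215 kb.

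The remaining interferon genes lie elsewhere. Ifng, the type II interferon of T and NK cells, was 395 kb from the nearest peak and shared a peak-free stretch of 822 kb with Il22, which was 159 kb from the same peak. Ifnk, a keratinocyte interferon, was the nearest of all interferon genes to a peak, at 3.26 kb, and this peak lay at the promoter of Mob3b.

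A pair of loci with inflammatory Ccl genes lies on chromosome 11, and neither held a peak. Ccl2, the main monocyte attractant, stood with Ccl7, Ccl11, Ccl12, Ccl8 and Ccl1 in 144 kb (82035571 to 82179812). These 6 promoters were 202 to 347 kb from the nearest peak and lay in a single peak-free stretch of 798 kb. Ccl5, an attractant of T cells, stood with Ccl9, Ccl6, Ccl3 and Ccl4 in 132 kb, at distances of 34.1 to 104 kb and in a stretch of 257 kb. Ccl5 was the nearest of these 5 to a peak.

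On chromosome 4, Ccl27a, Ccl21b, Ccl27b, Ccl19 and Ccl21a span 1000 kb with 18 other protein-coding genes, and the only peak was that of the Ccl27a promoter. Ccl19 and the Ccl21 genes encode ligands of Ccr7 that guide cells to lymph nodes. Ccl21b was 481 kb from the Ccl27a peak, the largest distance of any Ccl gene, and the 4 unmarked genes shared a peak-free stretch of 1175 kb. Much of this region is repeated: the share of unique 31-base words around the TSS was 0% for Ccl21b, 16.3% for Ccl21a and 18.6% for Ccl19. The unmarked Ccl gene nearest to a peak was Ccl17, at 9.80 kb.

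The neutrophil attractants Cxcl5, Cxcl3, Cxcl15, Cxcl1 and Cxcl2 lie on chromosome 5 in 144 kb, and Cxcl2 was the member farthest from any peak. Their distances ran from 376 kb for Cxcl5 to 521 kb for Cxcl2, within a peak-free stretch of 1083 kb that also held the platelet chemokine genes Ppbp and Pf4. Cxcl9 and Cxcl10, the interferon-induced ligands of Cxcr3, were 18.0 and 38.8 kb from a peak at the promoter of Sdad1. Cxcl12, a ligand that guides stem and germ cells through Cxcr4, was unmarked and 125 kb from the nearest peak, which was intergenic. Cxcl16 was the nearest unmarked Cxcl gene, at 6.75 kb.

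Many interleukin genes stood alone or in small clusters. The type 2 cytokine genes Il4, Il13 and Il5 lie within 102 kb on chromosome 11 around a peak at the promoter of the DNA repair gene Rad50 (chr11:53706398-53707810), and they were 87.7, 71.7 and 13.0 kb from it. Il24, Il20, Il19 and Il10 lie within 132 kb on chromosome 1 with no peak between them, in a stretch of 355 kb. Il10, an anti-inflammatory cytokine, was the nearest of these at 76.8 kb. The T cell growth factor gene Il2 was 186 kb from a peak and its neighbour Il21 was 79.3 kb from the same one. Il1b, encoding an inflammatory cytokine of macrophages, was 47.2 kb and its neighbour Il1a 12.0 kb from a peak. Il6, whose product signals through the same gp130 subunit as LIF, was 44.7 kb from a peak in the body of Tyms. Il15 was the interleukin gene farthest from a peak, at 370 kb. Il17a and Il17f had 2 intergenic peaks between them, of 4455 and 2028 bp, at 28.0 kb from Il17a and 14.1 kb from Il17f.

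**Figure D4:**
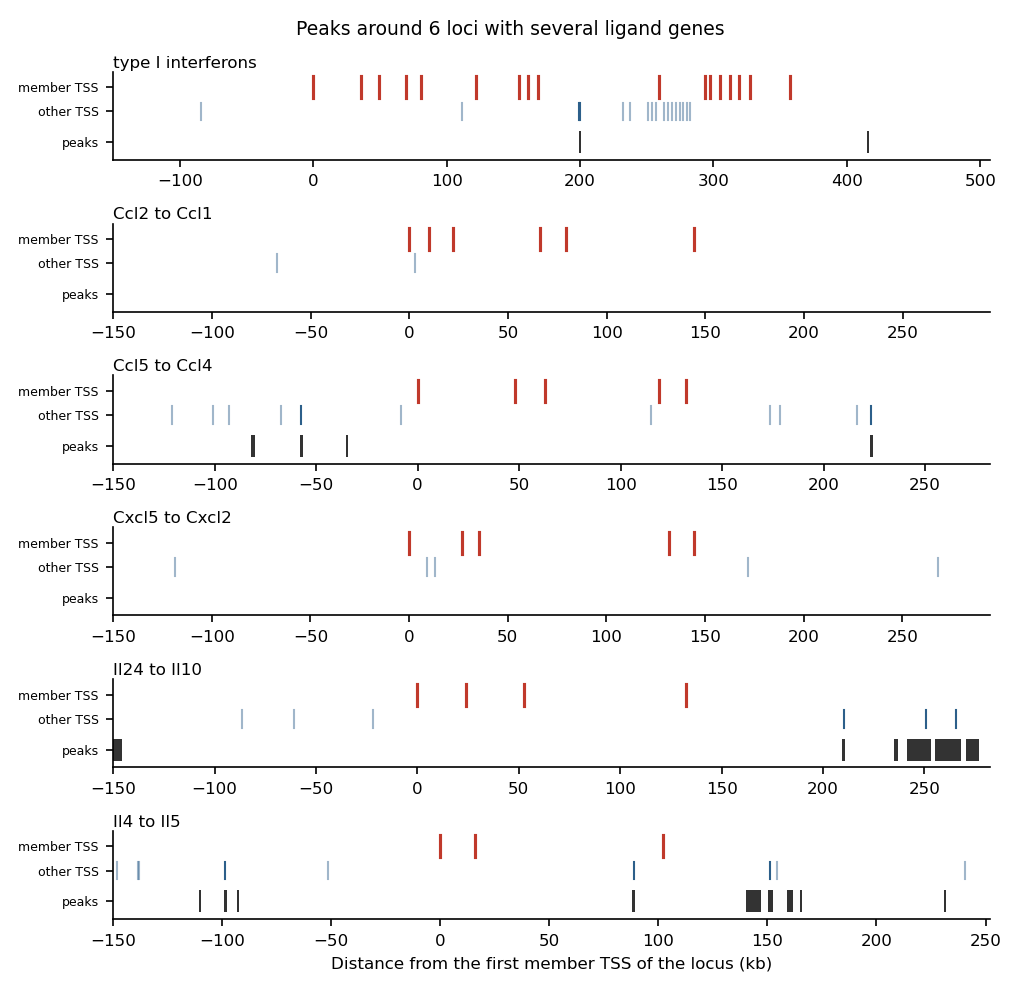
Maps of 6 loci with several ligand genes and 150 kb on each side, by distance from the first member TSS (kb, a scale of its own in each map), with member start sites (red), start sites of other protein-coding genes (blue, dark where the promoter was marked) and control peaks (black). Between the first and the last member TSS there was 1 peak at the type I interferon locus and 1 at the Il4 locus, both at a promoter of another gene, and there was none at the other 4 loci.

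Of the 39 loci, 15 held several members, 61 in all, and 10 of these 15 had no peak between the first and the last member TSS. Those 10 loci held 32 members. The nearest peak of the 81 unmarked members lay at the promoter of another gene for 48 (59.3%), in the body of another gene for 18, between genes for 13 and in the member's own gene for 2, Il7 and Cxcl17. The 81 members shared 43 nearest peaks. For Ccl21b the other gene was Ccl27a, itself a member. The same split was not made for all unmarked protein-coding genes, so these shares are not shown to be particular to the ligands.

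A TSS in a peak-free stretch of at least 200 kb was found for 56 of 85 members (65.9%, 55.3% to 75.1%), against 29.8% of all protein-coding genes. By subfamily these were 18 of 19 interferon, 19 of 23 Ccl, 7 of 12 Cxcl and 12 of 31 interleukin genes. With members within 500 kb joined, 18 of 39 loci (46.2%, 31.6% to 61.4%) had a member in such a stretch. A locus counted if any of its members did, and no count by locus was made for all protein-coding genes. With a limit of 500 kb in place of 200 kb the shares were 37.6% of members and 18.4% of all protein-coding genes. Among unmarked genes only, the shares were 69.1% (58.4% to 78.1%) of members and 57.1% of protein-coding genes. The median stretch was 257 kb for members. It was 287 kb for the 10874 unmarked protein-coding genes, members included, whose TSS lay between 2 peaks. The interval of the members' median, 215 to 517 kb, includes the latter value. Of 192 other protein-coding genes with a TSS within 100 kb of a member, 84 (43.8%, 36.9% to 50.8%) had a marked promoter, against the 4 of 85 members and 48.8% of all protein-coding genes, which lies inside this interval. Of the nearest non-member genes of the 81 unmarked members, counted once per member, 21 (25.9%) were marked. Both groups of neighbours hold ligands that the symbol pattern leaves out, among them Csf2, Cx3cl1, Ppbp and Pf4, all unmarked. They are therefore not groups free of ligands. The neighbours also include the 16 other genes of the type I interferon locus, of which 2 were marked.

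A TSS of another gene lay within 2 kb of 5 members. These were Ccl25 with Elavl1, Il11 with Tmem190 at 78 bp, Il31 with Lrrc43 at 184 bp, Il18 with Bco2 at 354 bp and Cxcl16 with Zmynd15 at 551 bp. Of these 5 pairs, only Ccl25 and Elavl1 were marked. No other TSS lay within 2 kb for 80 of the 85 members and for 18604 of all 21853 protein-coding genes. Such neighbours were therefore rarer among members. Among the genes without one, 3 of 80 members (3.75%) were marked, against 43.4% of protein-coding genes.

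The sequence around the TSS was not used by the rule. In the 300 bp from 250 bp before to 50 bp after the TSS, the median ratio of observed to expected CpG was 0.198 in members, 0.554 in all protein-coding promoters, 0.784 in the marked and 0.246 in the unmarked ones. The median GC content was 47.7% in members against 55.7%, and the median number of CpGs was 3 against 12. Interferon promoters were the poorest, with a median ratio of 0.116 and 1 CpG, followed by Ccl (0.190), interleukin (0.213) and Cxcl promoters (0.379). No CpG at all was found for Ifna6, Ifna11, Ifna12, Ifna15, Il17f, Il24 and Il25.

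Among the marked members, the ratio was 1.30 in Ccl25, above 99.9% of all protein-coding promoters, 0.772 in Cxcl14 and 0.593 in Ccl27a. Il34, with 0.257, lay at the 28.8th percentile of all protein-coding promoters.

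The shares of marked promoters were also set side by side within classes of the CpG ratio. Under 0.2, 0 of 44 members were marked (a count of 0 allows up to 6.82%) against 6.72% of 5072 protein-coding promoters. From 0.2 to 0.4, 1 of 31 members (3.23%, 0.572% to 16.2%) was marked, Il34, against 20.3% of 3642. From 0.4 to 0.6 it was 1 of 7, Ccl27a, against 50.2%, and from 0.6 on it was 2 of 3, Ccl25 and Cxcl14, against 79.7%. The unmarked member in the last class was Cxcl12, with a ratio of 0.654. In all, 75 of the 85 members had a ratio under 0.4. The part of the CpG content in the low share of marked members was not tested.

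**Figure D5:**
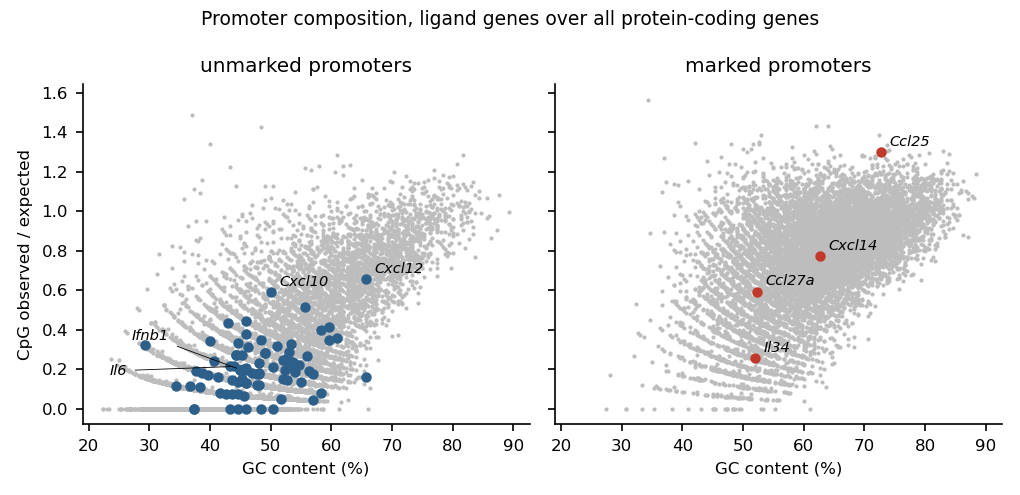
GC content (horizontal axis, percent) and ratio of observed to expected CpG (vertical axis) in 300 bp around the TSS, for unmarked promoters (left) and marked promoters (right), with ligand genes as large coloured points and all protein-coding genes as grey points. Most ligand genes lie at low CpG in the left panel, while Ccl25, Cxcl14 and Ccl27a lie at ratios of 0.593 to 1.30 in the right panel and Il34 at 0.257.

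Reads from repeated sequence are hard to place, and the authors removed poorly mapped reads, so the uniqueness of each promoter was computed. The median share of unique 31-base words in the 2 kb around the TSS was 97.2% in members and 98.4% in all protein-coding genes, but 77.7% in the interferon genes. Among promoters with at least 90% unique words, 3 of 58 members were marked (5.17%, 1.77% to 14.1%), against 55.4% of protein-coding genes. From 50% to 90% it was 0 of 21 against 30.8%, and under 50% it was 1 of 6, Ccl27a, against 5.10%. For the interferon and Ccl21 genes, how far repeated sequence kept peaks off the list was not tested.

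Motifs of factors that switch these genes on were searched on both strands of the same 300 bp. The letters were TATAAA for the TATA box, TGANTCA for AP-1, a sequence that reads as itself on the other strand, GAAANNGAAA for the interferon-stimulated response element (ISRE), and the κB motif of NF-κB by its usual consensus, and none of the 4 is part of another. A TATA box was found in 25 members (29.4%) against 12.4% of all protein-coding promoters, AP-1 in 12 (14.1%) against 6.65%, the ISRE in 18 (21.2%) against 3.62% and κB in 12 (14.1%) against 5.07%. Among the unmarked protein-coding promoters alone, the shares were 18.2% for the TATA box, 9.03% for AP-1, 4.26% for the ISRE and 5.07% for κB. Among the subfamilies, the ISRE letters were most frequent in the interferon genes, where 11 of 19 promoters (57.9%) had them, all of the Ifna and Ifnab type. The κB motif was most frequent in Cxcl genes, with 5 of 12 (41.7%), namely Cxcl1, Cxcl2, Cxcl3, Cxcl5 and Cxcl10. Genes of a cluster share ancestry, so these counts are no independent observations.

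In the printed sequences, Cxcl10 had an ISRE match GAAAGTGAAA at 213 bases before the TSS, κB matches GGGAAATTCC and GGGACTTCCC at 159 and 103 bases before it and an AP-1 match at 74. Ifnb1 had κB at 116 bases before the RefSeq TSS, TATA matches at 210 and 82, and no ISRE match by these letters. Il6 had AP-1 at 249 and κB at 44 bases before the TSS. All 3 were unmarked. Among the marked members, the only match to any of the 4 motifs was an ISRE match GAAACAGAAA in Cxcl14, 172 bases before the TSS. A match is a match of letters and does not show a site in use.

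The genes that receive and pass on these signals had other shares. Of 69 receptor genes, 12 promoters were marked (17.4%, 10.2% to 28.0%). They were both subunits of the type I interferon receptor (Ifnar1 and Ifnar2), Ifnlr1 and Il10rb of the related type III and Il10 receptors, gp130 (Il6st) with Il6ra and Lifr, the Cxcl12 receptors Cxcr4 and Ackr3, and Cxcr5, Il3ra and Il17rd. The interferon gamma receptor genes Ifngr1 and Ifngr2 were unmarked, 177 kb and 17.6 kb from a peak, and none of the 10 Ccr genes, from Ccr1 to Ccr10, was marked. These calls hold for the TSS used here. With any protein-coding isoform counted, 15 of the 69 receptor genes were marked.

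Of 48 genes of signal transduction, 36 were marked (75.0%, 61.2% to 85.1%). These included the 4 JAK kinase genes Jak1, Jak2, Jak3 and Tyk2, the STAT genes Stat2, Stat3 and Stat6, the NF-κB genes Rela, Relb, Rel, Nfkb1 and Nfkb2, and Irf3, Tbk1, Mavs and Cgas of the response to viral nucleic acid. The 12 unmarked ones included the receptors of microbial molecules Tlr3, Tlr4, Tlr7 and Tlr9, the RNA sensors Ddx58 (5.92 kb from a peak) and Ifih1 (17.6 kb), and the transcription factors Irf7 and Irf8.

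Of 46 ligands that the symbol pattern leaves out, Il17c and Il17d among them, 12 were marked (26.1%, 15.6% to 40.3%). They were Il17d, the gp130 ligands Osm, Ctf1 and Clcf1, the blood cell growth factors Epo, Thpo and Flt3l, the tumour necrosis factor family members Tnfsf9, Tnfsf12 and Tnfsf13, and Mif and Cklf. Without genes that have another TSS within 2 kb the share was 15.0%. Lif, the ligand that the medium supplied, was unmarked and 8.90 kb from a peak, and Tnf was 11.6 kb from one. No test of the differences between these lists was made.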

How the data were processed

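H3K27ac ChIP-seq was made in control, NVP-2 and ActD-treated mESCs, with 2 replicates each. The authors deposited 1 list of control peaks, with positions in base pairs on mm10 and no count, score or height, pooled over both replicates. Per the study's methods and the submitters' processing notes, they trimmed reads with Cutadapt, aligned them with bwa to the mouse and human genomes, removed duplicates (Picard 2.9.1) and poorly mapped reads (SAMtools 1.4), called peaks with LanceOtron, merged nearby ones and dropped peaks of low height and peaks away from ATAC-seq summits. Peaks that failed these filters are missing from the list.

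Here peaks were set against protein-coding transcripts of protein-coding genes in GENCODE release M21 (GRCm38, the build of the peaks). The study's methods give a different GENCODE release of the same build. Peak starts were counted from 1. Composition, motifs and 31-base words were read from the GRCm38 genome, and printed promoters from RefSeq. Shares have 95% Wilson intervals, and the limit of a count of 0 is 3 counts. Both take genes as independent, which members of a cluster are not. The list holds no values per replicate, so no test was made. Alternatives changed the window, isoform, peak width, overlap, neighbouring TSSs, clustering and stretch length. The functions were tested on simulated data. Python 3.11.15, numpy 2.4.6, pandas 2.3.3, scipy 1.17.1, numba 0.67.0 and matplotlib 3.10.9 were used.

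The members and gene lists were chosen with earlier results of these data known. Named members were those marked, those whose call changed, the unmarked ones nearest to and farthest from a peak in each subfamily, and Ifnb1, Ifng, Il1b, Il2, Il4, Il6, Il10, Ccl2, Ccl5, Cxcl10 and Cxcl12. The rule for other lists was the first 10 genes of each. Other names were chosen after their values were seen. Of 47 other ligands, 46 were found in the annotation. Treated libraries were not analysed here.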

Additional observations from a re-analysis of the deposited data

How the results depend on the processing

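Over 12 alternatives the share of marked ligand promoters ran from 3.53% to 10.3%, inside its interval. The 10.3% is a share of loci, and the highest share of promoters was 5.88%, with windows of ± 2 kb. The share of all protein-coding promoters ran from 43.4% to 51.0%, and no count by locus was made for it. The Cxcl share fell from 8.33% to 0% both when the TSS itself had to lie in a peak and with peaks of at least 1 kb, and the share of the other ligands was 15.0% without genes that have another TSS within 2 kb. The median distance over all members, 79.3 kb, became 146 kb with peaks of at least 1 kb and 44.7 kb with members within 500 kb counted once, and that of unmarked members, 87.7 kb, became 157 kb and 48.7 kb. The share of members in a long peak-free stretch, 65.9% at 200 kb, was 82.4% at 100 kb and 37.6% at 500 kb, beside 37.7% and 18.4% of all protein-coding genes. At 200 kb, 46.2% of loci had at least 1 member in such a stretch. Of 196 calls for single named members under the alternatives, 4 changed.

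Protein-coding transcripts, planned as an alternative, set the TSS used throughout, since the study's methods name them, beside lincRNA transcripts. Transcripts of every type became the alternative. Both choices were made after seeing the data. The inclusion of Il36a and Il36b under their older symbols (87 genes), that of Il17c and Il17d, the count of stretches by locus and the classes of CpG ratio and unique 31-base words were also chosen after seeing the data. No paired analysis was possible with the control peak list, because it pools both control replicates, which also leaves no replicate to drop. The paper states that raw reads and browser tracks were deposited too, and these were not used here. The list does not give the depth behind its peaks, and an unmarked promoter is one without a listed peak.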
